A study of Mus musculus with 14 samples.

Results

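Skeletal muscle RNA was measured through 36 listed genes in bulk RNA from mouse tumours. The list was applied by symbol to the whole table of 51789 genes, and all 36 genes were found. By fibre type 14 of them belong to fast fibres, 7 to slow fibres and 15 to both, and by role 10 code for the thick filament, 9 for the thin filament, 7 for the Z disc and scaffold, 5 for calcium handling and 5 for energy and oxygen supply. The 14 libraries came from tumours in mice of a strain labelled NGS (vehicle, 3 libraries; ACSS2i, 3 libraries) and of a strain labelled C57BI/6 (vehicle, 4 libraries; ACSS2i, 4 libraries). ACSS2i is an inhibitor of ACSS2, an enzyme that makes acetyl-CoA from acetate. What the label NGS stands for and which immune cells those mice have were not given by the sources used, and neither were the tumour cell line, the site of growth, the age of the mice or the treatment schedule. The design text names different Bmal1 status, but no label gives one to a library. The QuantSeq kit counts transcripts by their 3′ ends. Levels were compared mainly between libraries, and where genes are set beside each other, the shares and ratios are those of counts.

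Skeletal muscle fibres contract when thick filaments of myosin pull on thin filaments of actin, after calcium from the sarcoplasmic reticulum binds troponin. Fast and slow fibres build the same machine from different gene copies: each has its own myosin heavy and light chains and its own troponin subunits. Most limb and trunk muscles of the mouse are dominated by fast fibres, and postural muscles such as the soleus hold more slow fibres.

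The summed level of the 36 genes differed up to 94.6-fold between libraries (860-fold without Des, Tpm2 and Eno3, which other cells also make), and the groups of strain and treatment did not separate it. Levels are given in CPM, counts scaled to the library total, and were summed over the 36 genes. The sum was 1171, 14820 and 7050 CPM in NGS vehicle libraries 1 to 3, and 1932, 229 and 208 CPM in NGS ACSS2i libraries 1 to 3. In C57BI6 vehicle libraries 1 to 4 it was 2046, 231, 198 and 157 CPM, and in C57BI6 ACSS2i libraries 1 to 4 it was 664, 193, 5929 and 170 CPM. Every group held libraries at least 9.27-fold apart. NGS vehicle 2, NGS vehicle 3 and C57BI6 ACSS2i 3 stood highest, and the 7 lowest libraries, which came from all groups but NGS vehicle, lay within 1.47-fold of each other (2.84-fold without those 3 genes). In NGS vehicle 2 the 36 genes took 1.48% of all counts, and in C57BI6 vehicle 4 they took 0.0157%. Means were 7680 ± 6850 CPM in NGS vehicle (SD, n = 3), 790 ± 989 in NGS ACSS2i (SD, n = 3), 658 ± 926 in C57BI6 vehicle (SD, n = 4) and 1740 ± 2800 in C57BI6 ACSS2i (SD, n = 4), so that in 3 of the 4 groups the SD exceeded the mean. In bulk tissue, more muscle fibres and more RNA per fibre cannot be told apart.

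**Figure D1:**
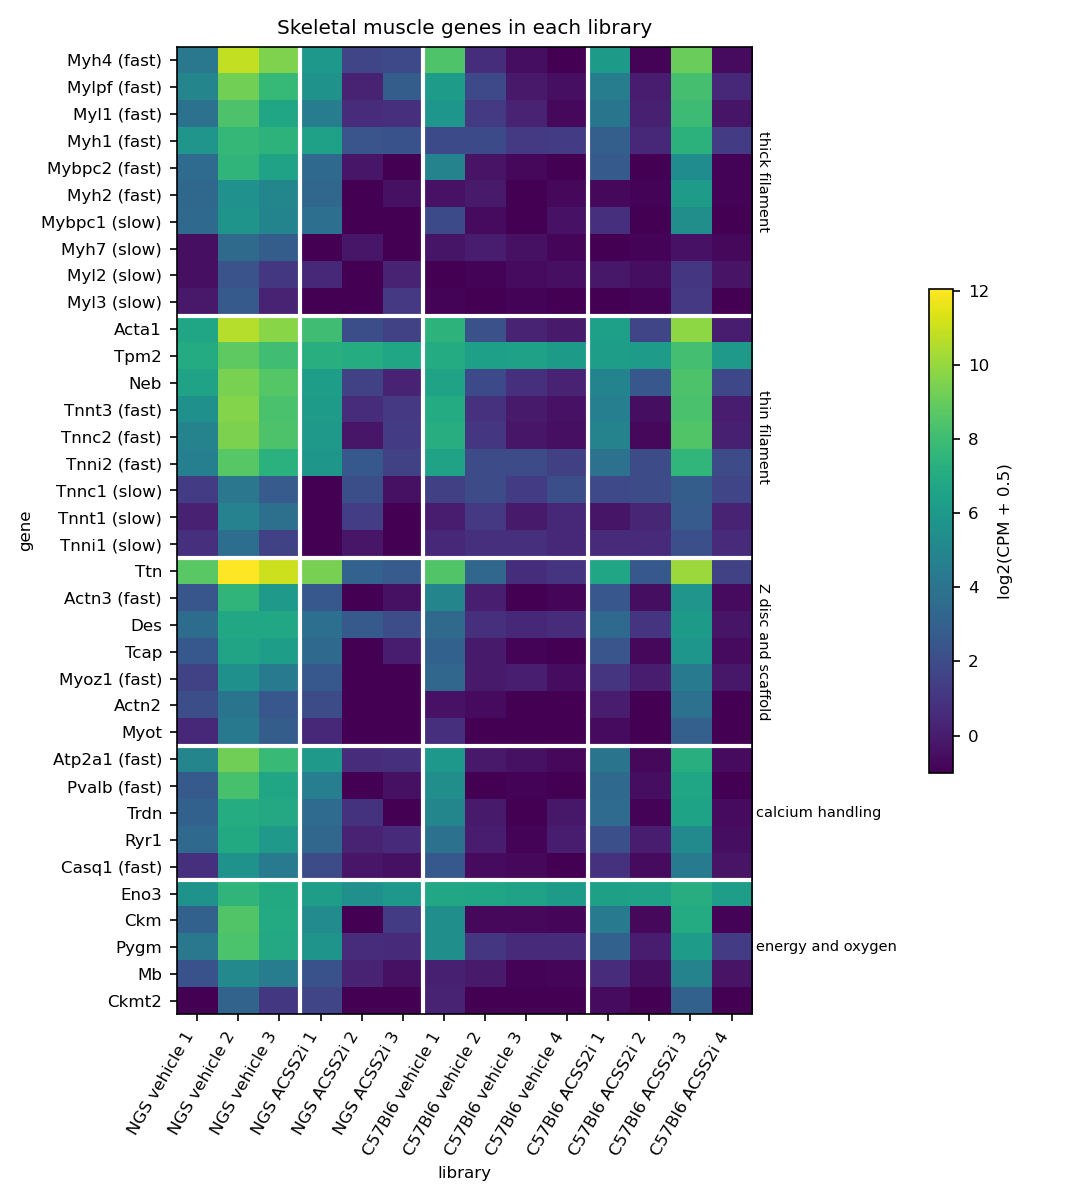
Level of each of the 36 genes in each library, as log2(CPM + 0.5) on a colour scale, with genes ordered by role (the fibre class in brackets) and white lines between roles and between the 4 groups. NGS vehicle 2, NGS vehicle 3 and C57BI6 ACSS2i 3 are bright from top to bottom, and Tpm2 and Eno3 are the rows that stay bright in all 14 libraries.

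Most of the genes had the same highest libraries. NGS vehicle 2 held the highest level of 34 of the 36 genes. Des reached 108.4 CPM in NGS vehicle 3 against 108.3 in NGS vehicle 2, and Myh2 was highest in C57BI6 ACSS2i 3. NGS vehicle 2, NGS vehicle 3 and C57BI6 ACSS2i 3 were the 3 highest for 33 of the 36 genes. The 7 libraries with the highest sums were the 7 highest for 25 genes. That count includes Ckmt2, for which NGS vehicle 1 tied at 0 CPM with the lower libraries. For 12 genes the levels of these 7 libraries and of the other 7 overlapped, namely Ckmt2, Eno3, Mb, Myh1, Myh2, Tpm2 and 6 of the 7 slow genes (all but Mybpc1). All 36 genes had counts in NGS vehicle 2, NGS vehicle 3 and C57BI6 ACSS2i 3, while 24 had counts in NGS ACSS2i 2 and 27 in C57BI6 vehicle 4. Depth followed strain, with 2846161 to 4701101 counts in NGS libraries and 17645504 to 20344809 in C57BI6 libraries. Where a gene had no count, a level of up to 3 counts is still possible, which is 0.638 to 1.05 CPM in NGS libraries and 0.147 to 0.17 CPM in C57BI6 libraries.

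Among the thick filament genes, Myh4 carried the widest range. Myh4, the heavy chain of the fastest fibres (type IIb), was at 18.3, 1883 and 744 CPM in the NGS vehicle libraries and at 61.4, 2.81 and 3.22 in NGS ACSS2i. In C57BI6 it was at 347, 1.11, 0.208 and 0 CPM with vehicle and at 69.8, 0.0491, 535 and 0.148 with ACSS2i. The highest library thus lay at least 11100-fold above C57BI6 vehicle 4, which had no count. Every group but NGS vehicle spanned both high and low libraries, and the lowest NGS vehicle library was at 18.3 CPM. Myh1, the heavy chain of type IIx fibres, was at 56.4, 204 and 173 CPM in NGS vehicle and at 87.8, 4.92 and 4.46 in NGS ACSS2i. With vehicle in C57BI6 it was at 3.31, 3.28, 1.82 and 1.87 CPM and with ACSS2i at 7.18, 0.934, 167 and 1.92. C57BI6 vehicle 1 was therefore as low in Myh1 as its neighbours, although it was the highest of its group in Myh4. Myh2, the heavy chain of type IIa fibres, was at 9.79, 48.1 and 31.4 CPM in NGS vehicle and at 9.46, 0 and 0.248 in NGS ACSS2i. It was at 0.267, 0.477, 0 and 0.113 CPM in C57BI6 vehicle and at 0.109, 0.0491, 74.5 and 0.0493 in C57BI6 ACSS2i, where library 3 stood alone. Myh7, the slow heavy chain, was at 0.213, 11.1 and 6.66 CPM in NGS vehicle, at 0, 0.351 and 0 in NGS ACSS2i, and at or below 0.53 in all 8 C57BI6 libraries, library 3 with ACSS2i included. Myh4, Myh1 and Myh2 lie in a row on chromosome 11 and are near-identical over long stretches, so that the division of shared reads between them by the authors' counting is uncertain.

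The windows upstream of the 3 fast heavy chain genes are printed because these neighbours differed in their levels, beside that of Ckm, muscle creatine kinase, a classic target of muscle transcription factors. Each is the 250 bases before the RefSeq start of the gene in GRCm38.p6, read 5′ to 3′ on the plus strand, at chr11:67237562-67237811 for Myh4, chr11:67199852-67200101 for Myh1, chr11:67170777-67171026 for Myh2 and chr7:19410844-19411093 for Ckm. Capitals mark CAGCTG (an E-box that MyoD and myogenin can bind), TATAAA and the CArG box, bound by serum response factor, on either strand.
Myh4: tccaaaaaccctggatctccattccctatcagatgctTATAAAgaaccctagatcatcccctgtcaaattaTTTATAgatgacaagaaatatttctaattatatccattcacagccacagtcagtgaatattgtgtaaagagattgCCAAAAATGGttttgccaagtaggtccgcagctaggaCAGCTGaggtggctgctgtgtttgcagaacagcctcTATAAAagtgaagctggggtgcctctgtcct
Myh1: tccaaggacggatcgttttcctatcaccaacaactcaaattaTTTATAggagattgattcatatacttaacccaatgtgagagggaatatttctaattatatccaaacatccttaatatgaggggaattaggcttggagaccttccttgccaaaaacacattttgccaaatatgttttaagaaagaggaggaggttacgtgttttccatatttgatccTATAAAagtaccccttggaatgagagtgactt
Myh2: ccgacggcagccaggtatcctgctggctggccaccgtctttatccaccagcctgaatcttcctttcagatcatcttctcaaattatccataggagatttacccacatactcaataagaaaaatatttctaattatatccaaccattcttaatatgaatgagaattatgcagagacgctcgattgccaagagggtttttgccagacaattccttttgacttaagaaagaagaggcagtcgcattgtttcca
Ckm: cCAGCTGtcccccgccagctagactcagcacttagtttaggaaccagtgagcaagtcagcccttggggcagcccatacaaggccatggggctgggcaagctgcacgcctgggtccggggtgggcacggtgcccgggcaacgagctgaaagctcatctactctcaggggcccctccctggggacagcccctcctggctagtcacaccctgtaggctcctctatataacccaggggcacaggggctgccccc

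The Myh4 window held CAGCTG 67 bases and the CArG box 104 bases before the start, and TATAAA at 31, 179 and 213 bases. The Myh1 window held TATAAA at 32 and 208 bases and no CAGCTG, the Myh2 window held none of the 3 motifs, and the Ckm window held CAGCTG at 249 bases. RefSeq windows matched 28 of the 36 genes by symbol. CAGCTG was found in 13 of these 28 windows (46.4%), against 12.8% of 27025 mouse gene windows of the same length. The CArG box was found in 3 (10.7%) against 1.4%, the MEF2 box in 1 (3.57%) against 0.518%, TATAAA in 5 (17.9%) against 13.0%, and the looser E-box CANNTG, which contains CAGCTG, in 24 (85.7%) against 66.0%, on either strand. These are matches of letters and were given no test.

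The share of each heavy chain differed between libraries that were rich in muscle RNA. Out of the counts of 6 heavy chain genes (Myh4, Myh1, Myh2, Myh7 and the developmental Myh3 and Myh8), Myh4 took 87.7% in NGS vehicle 2 (exact 95% interval 87.0 to 88.3, 9321 counts), 77.8% in NGS vehicle 3 (76.5 to 79.1, 4023 counts), 98.8% in C57BI6 vehicle 1 (98.5 to 99.1, 6562 counts) and 67.0% in C57BI6 ACSS2i 3 (66.2 to 67.7, 14784 counts). In NGS vehicle 1 the leading gene was Myh1, at 66.1% (61.2 to 70.7, 401 counts), with Myh4 at 21.4% (17.5 to 25.8), and in NGS ACSS2i 1 it was also Myh1, at 55.3% (51.1 to 59.5, 553 counts), with Myh4 at 38.7% (34.6 to 42.9). These intervals cover counting error only and do not overlap between the libraries. NGS vehicle 1 and NGS ACSS2i 1 were also the libraries with the highest sum of 20 skin genes, at 1995 and 959 CPM against 31.97 to 103 CPM in the other 4 NGS libraries and 19.8 to 25.2 CPM in C57BI6, and the part of skin in the heavy chain shares was not tested. C57BI6 ACSS2i 3 carried Myh2 at 9.33% (8.87 to 9.81), Myh8, the perinatal heavy chain, at 1.75% (1.55 to 1.98) and Myh3, the embryonic heavy chain, at 0.92% (0.772 to 1.09). The level of Myh3 and Myh8 together was 21.3 CPM there and at most 2.54 CPM in the other 13 libraries.

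**Figure D2:**
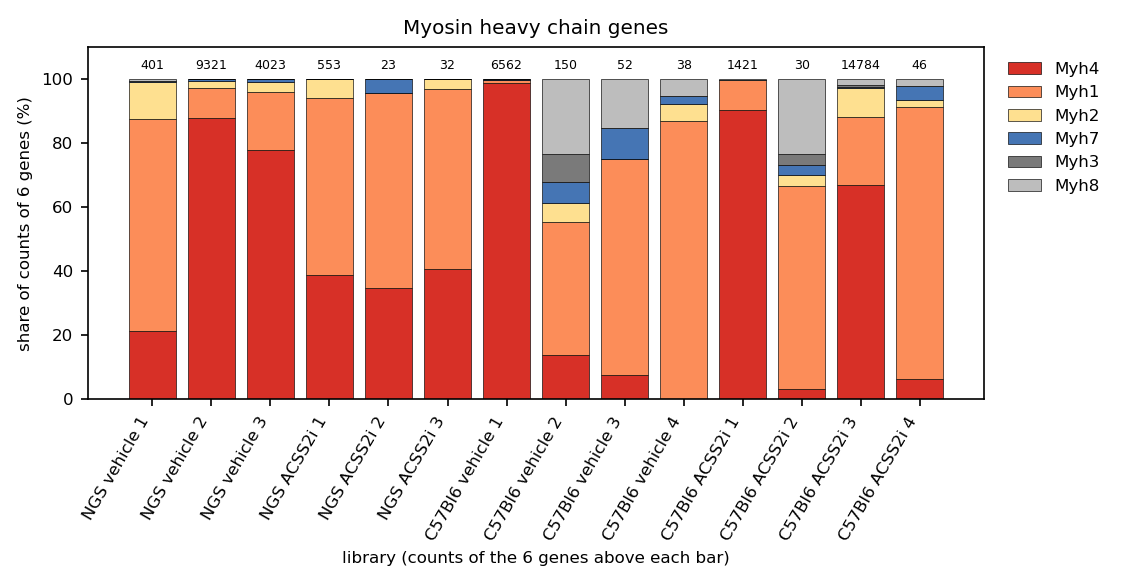
Share of each of 6 myosin heavy chain genes in their summed counts, in percent, for each library, with the summed counts above the bars. Myh4 leads in 5 of the 14 bars and Myh1 in the other 9, of which 7 rest on only 23 to 150 counts.

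The light chain genes and the genes of myosin-binding protein C were highest in the same 3 libraries as Myh4, with the exception of Myl3. Mylpf, the regulatory light chain of fast fibres, was at 30.6, 609 and 215 CPM in NGS vehicle, at 51.0, 0.703 and 6.69 in NGS ACSS2i, at 70.3, 3.23, 0.417 and 0.227 in C57BI6 vehicle, and at 22.9, 0.491, 298 and 0.936 in C57BI6 ACSS2i. Its slow counterpart Myl2 was at 0.213, 4.61 and 1.66 CPM in NGS vehicle, at 0.86, 0 and 0.744 in NGS ACSS2i, at 0, 0.053, 0.156 and 0.227 in C57BI6 vehicle, and at 0.381, 0.197, 1.62 and 0.295 in C57BI6 ACSS2i. Mylpf was thus high and Myl2 at 0 in the same library, C57BI6 vehicle 1. Myl1, the essential light chain of fast fibres, was at 14.5, 343 and 106 CPM in NGS vehicle, at 22.7, 1.05 and 1.24 in NGS ACSS2i, at 57.9, 1.8, 0.729 and 0.113 in C57BI6 vehicle, and at 16.6, 0.59, 251 and 0.345 in C57BI6 ACSS2i. Its slow counterpart Myl3 was at 0.425, 5.99 and 0.713 CPM in NGS vehicle, at 0, 0 and 1.74 in NGS ACSS2i, at 0.0535, 0, 0.0521 and 0 in C57BI6 vehicle, and at 0, 0.0491, 1.73 and 0 in C57BI6 ACSS2i. Myl3 had its second highest level in NGS ACSS2i 3, a library low in muscle RNA, and most of its values lay at or under the level of 3 counts. Mybpc2, the fast myosin-binding protein C, was at 11.5, 189 and 91.3 CPM in NGS vehicle, at 10.6, 0.351 and 0 in NGS ACSS2i, at 28.3, 0.318, 0.104 and 0 in C57BI6 vehicle, and at 6.09, 0, 40.5 and 0.0493 in C57BI6 ACSS2i. Mybpc1, the slow form, was at 10.4, 54.1 and 29.0 CPM in NGS vehicle, at 12.9, 0 and 0 in NGS ACSS2i, at 3.26, 0.159, 0 and 0.283 in C57BI6 vehicle, and at 1.25, 0, 42.5 and 0 in C57BI6 ACSS2i. The 3 highest libraries of Mybpc1 were also those of Myl2. Mybpc1 was the only slow gene for which the 7 libraries with the highest sums all lay above the others.

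Of the thin filament genes, Acta1, the actin of skeletal muscle, was at 105, 1528 and 842 CPM in NGS vehicle, at 262, 3.86 and 2.48 in NGS ACSS2i, at 173, 4.24, 0.677 and 0.453 in C57BI6 vehicle, and at 80.7, 2.8, 910.2 and 0.542 in C57BI6 ACSS2i. The highest library lay 3370-fold above the lowest, and library 1 of C57BI6 vehicle and library 3 of C57BI6 ACSS2i stood apart within their groups. The calcium sensor of the fast filament, Tnnc2, was at 27.7, 705 and 339 CPM in NGS vehicle, at 64.2, 0.351 and 1.98 in NGS ACSS2i, at 138, 1.59, 0.365 and 0.227 in C57BI6 vehicle, and at 28.0, 0.0983, 366 and 0.591 in C57BI6 ACSS2i. The slow sensor Tnnc1, which the heart also uses, was at 1.91, 17.3 and 6.18 CPM in NGS vehicle, at 0, 3.86 and 0.248 in NGS ACSS2i, at 2.3, 3.44, 1.93 and 3.97 in C57BI6 vehicle, and at 3.21, 3.59, 6.59 and 2.76 in C57BI6 ACSS2i. All 8 C57BI6 libraries thus carried Tnnc1 between 1.93 and 6.59 CPM, those almost without Tnnc2 included. The inhibitory subunit of fast fibres, Tnni2, was at 24.3, 399.5 and 159 CPM in NGS vehicle, at 59.4, 5.62 and 2.48 in NGS ACSS2i, at 91.5, 3.65, 3.65 and 2.27 in C57BI6 vehicle, and at 14.1, 3.54, 193 and 3.45 in C57BI6 ACSS2i. The slow inhibitory subunit, Tnni1, was at 1.28, 12.7 and 2.38 CPM in NGS vehicle, at 0, 0.351 and 0 in NGS ACSS2i, at 0.909, 1.27, 1.25 and 0.85 in C57BI6 vehicle, and at 1.03, 0.983, 4.05 and 1.03 in C57BI6 ACSS2i. As for Tnnc1, the C57BI6 libraries other than ACSS2i 3 lay close together. Tnnt3, which ties troponin to tropomyosin in fast fibres, was at 46.2, 804 and 321 CPM in NGS vehicle, at 72.8, 1.05 and 1.74 in NGS ACSS2i, at 131, 1.32, 0.469 and 0.283 in C57BI6 vehicle, and at 24.03, 0.197, 313 and 0.492 in C57BI6 ACSS2i. Its slow partner Tnnt1 was at 0.638, 26.7 and 13.8 CPM in NGS vehicle, at 0, 2.11 and 0 in NGS ACSS2i, at 0.481, 1.75, 0.469 and 0.85 in C57BI6 vehicle, and at 0.326, 0.836, 6.16 and 0.739 in C57BI6 ACSS2i. Tnnt1 was at 0 in NGS ACSS2i 1, where Tnnt3 was at its group's highest. Tpm2, a tropomyosin that smooth muscle and fibroblasts make as well, was at 133, 443 and 269 CPM in NGS vehicle, at 147, 134 and 102 in NGS ACSS2i, at 133, 82.5, 88.2 and 69.9 in C57BI6 vehicle, and at 78.2, 74.4, 285 and 67.4 in C57BI6 ACSS2i. Its highest library lay 6.58-fold above its lowest, and Neb, the long ruler of the thin filament, ranged 944-fold.

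In the Z disc and scaffold, Ttn, the giant spring that spans the sarcomere, was at 421, 4248 and 2114 CPM in NGS vehicle, at 662, 8.08 and 6.2 in NGS ACSS2i, at 359, 9.48, 1.15 and 1.47 in C57BI6 vehicle, and at 102, 5.46, 1095 and 2.36 in C57BI6 ACSS2i, a 3710-fold range. Des, the intermediate filament of all muscle types, was at 11.7, 108.3 and 108.4 CPM in NGS vehicle, at 12.9, 5.97 and 3.72 in NGS ACSS2i, at 10.9, 1.22, 0.938 and 1.08 in C57BI6 vehicle, and at 10.4, 1.52, 68.3 and 0.345 in C57BI6 ACSS2i. Every NGS library lay above the 3 lower libraries of C57BI6 vehicle in Des. Tcap, which caps titin at the Z disc, was at 5.53, 98.6 and 78.7 CPM in NGS vehicle, at 10.6, 0 and 0.496 in NGS ACSS2i, at 7.91, 0.477, 0.0521 and 0 in C57BI6 vehicle, and at 5.0, 0.0983, 57.7 and 0.148 in C57BI6 ACSS2i. Actn2, the actinin that crosslinks actin in all skeletal fibres and the heart, was at 3.83, 16.4 and 5.23 CPM in NGS vehicle, at 3.44, 0 and 0 in NGS ACSS2i, at 0.267, 0.159, 0 and 0 in C57BI6 vehicle, and at 0.489, 0, 14.6 and 0 in C57BI6 ACSS2i. C57BI6 vehicle 1, the highest of its group in the fast genes, was close to 0 in Actn2. Actn3, the actinin of fast fibres, was at 30.7 CPM in that library, and the genes of the Z disc proteins Myoz1 and Myot were at 9.41 and 1.28 CPM.

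For calcium handling, Atp2a1, the pump that returns calcium to the reticulum of fast fibres, was at 30.6, 591 and 222 CPM in NGS vehicle, at 66.5, 1.05 and 1.24 in NGS ACSS2i, at 61.7, 0.424, 0.26 and 0.113 in C57BI6 vehicle, and at 15.6, 0.0983, 149 and 0.148 in C57BI6 ACSS2i. Pvalb, the calcium buffer of fast fibres, Casq1, the calcium store of the reticulum, Ryr1, the release channel, and Trdn, which anchors calsequestrin to it, had the same 3 highest libraries. Their highest levels were 304, 50.0, 119.8 and 134 CPM. For energy and oxygen supply, Mb, the oxygen store myoglobin, was at 4.47, 34.3 and 21.6 CPM in NGS vehicle, at 4.3, 0.703 and 0.248 in NGS ACSS2i, at 0.588, 0.477, 0.0521 and 0.0567 in C57BI6 vehicle, and at 1.09, 0.197, 28.3 and 0.295 in C57BI6 ACSS2i. Mb was thus as low in C57BI6 vehicle 1 as in library 2 of that group. Eno3, the muscle form of the glycolytic enzyme enolase, was at 52.1, 185 and 120.3 CPM in NGS vehicle, at 77.7, 46.7 and 62.2 in NGS ACSS2i, at 108, 101, 91.8 and 69.4 in C57BI6 vehicle, and at 85.8, 88.7, 141 and 79.3 in C57BI6 ACSS2i. Its 3.95-fold range was the narrowest of the 36 genes, with NGS vehicle 2 still the highest. Ckm and Pygm, muscle glycogen phosphorylase, reached 361.5 and 331 CPM in NGS vehicle 2, and Ckmt2, the creatine kinase of mitochondria, reached 8.3 CPM and had no count in 8 libraries.

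Des, Tpm2 and Eno3 made up most of the sum in the libraries with little muscle RNA. Without these 3 genes the sum was 43.2 and 40.9 CPM in NGS ACSS2i 2 and 3, 46.5, 17.2 and 16.4 CPM in C57BI6 vehicle 2 to 4, and 28.0 and 22.6 CPM in C57BI6 ACSS2i 2 and 4. In the other 7 libraries it ran from 489.8 CPM in C57BI6 ACSS2i 1 to 14090 CPM in NGS vehicle 2. The remaining 7 libraries held traces. The split follows the sum of these same genes, so it gives no separate support for the label of skeletal muscle. It did not hold for every role: the energy and oxygen genes summed to 82.75 CPM in NGS vehicle 1 and to 103.1 CPM in C57BI6 vehicle 2. Eno3 alone was at 101 CPM in C57BI6 vehicle 2.

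**Figure D3:**
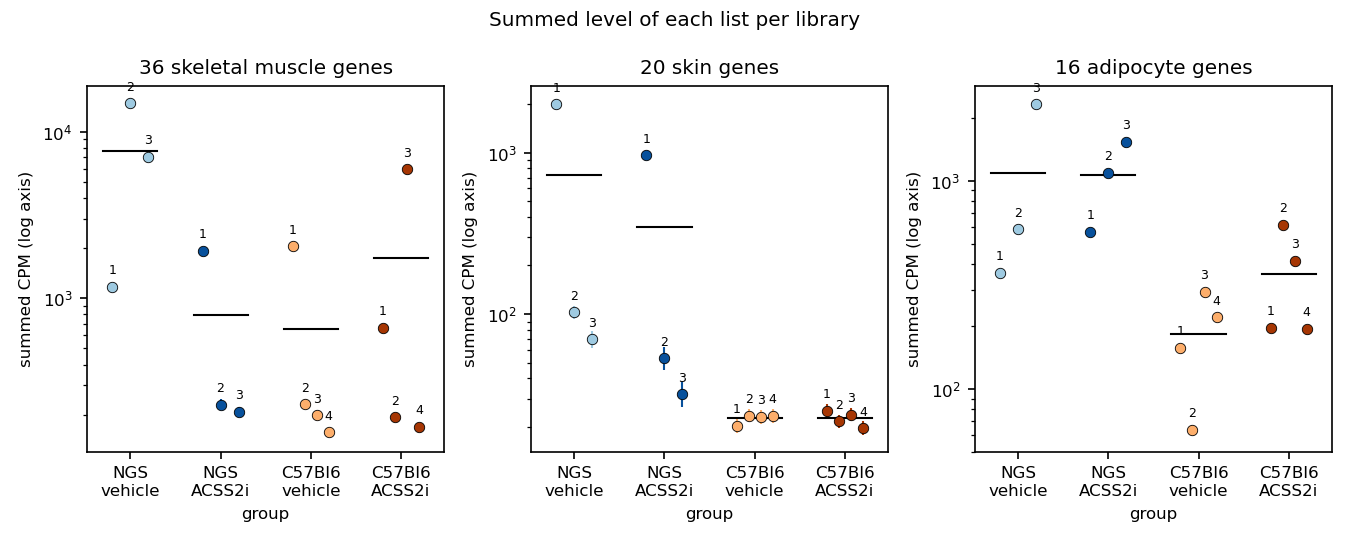
Summed CPM (log axis) of the 36 muscle genes, of 20 skin genes and of 16 adipocyte genes in each library by group. Numbers give the replicate, vertical bars the exact Clopper-Pearson 95% interval and horizontal lines the group mean. Muscle sums of libraries within a group lie far apart, the 2 high skin sums are NGS vehicle 1 (1995) and NGS ACSS2i 1 (959), and neither is among the 3 highest muscle sums.

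The muscle genes were among the most variable genes between replicates. The biological coefficient of variation estimated by edgeR within groups, the spread between replicates relative to the mean, had a median of 1.54 over the 35 genes that passed the filter on low counts, beside 0.191 over all 17294 genes that passed it. Of the 35 genes, 21 lay in the top 1% of all genes. Pvalb was at 2.11, Myh4 at 1.9 and Ckm at 1.8. The lowest were Eno3 at 0.303 and Tpm2 at 0.432, followed by the slow troponin genes Tnnc1 at 0.639 and Tnni1 at 0.646. The median within-group SD of log2(CPM + 0.5) was 2.27 for the 35 genes and 0.297 for all genes.

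Fast genes took nearly all counts of the fast and slow classes where muscle RNA was abundant, and in most C57BI6 libraries the slow genes kept a low level while the fast genes ranged widely. Of the summed level of all 36 genes, fast genes took 24.3 to 49.7% in the 7 libraries with the highest sums and 3.47 to 11.5% in the other 7, and shared genes took the larger part in all 14. The libraries were ranked by a sum that contains the fast genes. In the other 7 that sum came mostly from Des, Tpm2 and Eno3, so the lower share there is not read as a trait of the fibres. The share of counts of the 14 fast genes in those of the 14 fast and 7 slow genes was 95.0%, 98.0% and 97.7% in NGS vehicle libraries 1 to 3 and 97.5%, 73.2% and 89.8% in NGS ACSS2i. In C57BI6 it was 99.3%, 71.9%, 68.0% and 46.6% with vehicle and 97.3%, 55.6%, 97.6% and 64.5% with ACSS2i. The 7 libraries with the highest muscle sums lay at or above 95.0%, and the others below, in a ranking by a sum that includes these genes. The exact 95% interval was widest in NGS ACSS2i 2, from 61.4 to 83.1%, with 52 fast and 19 slow counts. Summed levels of the slow genes were 7.33, 7.21, 4.12 and 6.23 CPM in C57BI6 vehicle, a 1.78-fold range. Across the same 4 libraries the fast sum ran from 5.44 to 1018 CPM, a 187-fold range. In NGS the slow sum ranged 48.6-fold, beside 348-fold for the fast genes. It was 15.1, 132.5 and 60.4 CPM in vehicle and 13.8, 6.68 and 2.73 CPM in ACSS2i. Without Mybpc1 it was 4.68, 78.3 and 31.4 CPM in vehicle and 0.86, 6.68 and 2.73 CPM in ACSS2i. NGS ACSS2i 1, the highest of its group in the muscle sum, was then the lowest NGS library. C57BI6 ACSS2i 3 was the C57BI6 library in which the slow sum was also raised, at 62.9 CPM against 4.93 to 6.2 in the other 3 of its group. Without Mybpc1 it was 20.4 CPM against 4.93 to 5.70.

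The partner genes showed this pair by pair. The ratio of Tnnc2 to Tnnc1 counts was 60.2 in C57BI6 vehicle 1, 55.5 in C57BI6 ACSS2i 3 and 8.71 in C57BI6 ACSS2i 1, and lay between 0.0274 and 0.462 in the other 5 C57BI6 libraries. For Tnnt3 to Tnnt1 it was 272, 50.8 and 73.7 in the same 3 libraries and between 0.235 and 1.0 in the other 5. For Tnni2 to Tnni1 it was 101, 47.5 and 13.7 against 2.67 to 3.6. In NGS vehicle the ratio of Tnnc2 to Tnnc1 was 14.4, 40.8 and 54.8. The ratio of Mybpc2 to Mybpc1 ordered the libraries differently: it was 8.69 in C57BI6 vehicle 1 and 4.87 in C57BI6 ACSS2i 1, but 0.954 in C57BI6 ACSS2i 3, 1.1 in NGS vehicle 1 and 0.822 in NGS ACSS2i 1. These are ratios of counts of different genes and are read only between libraries.

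**Figure D4:**
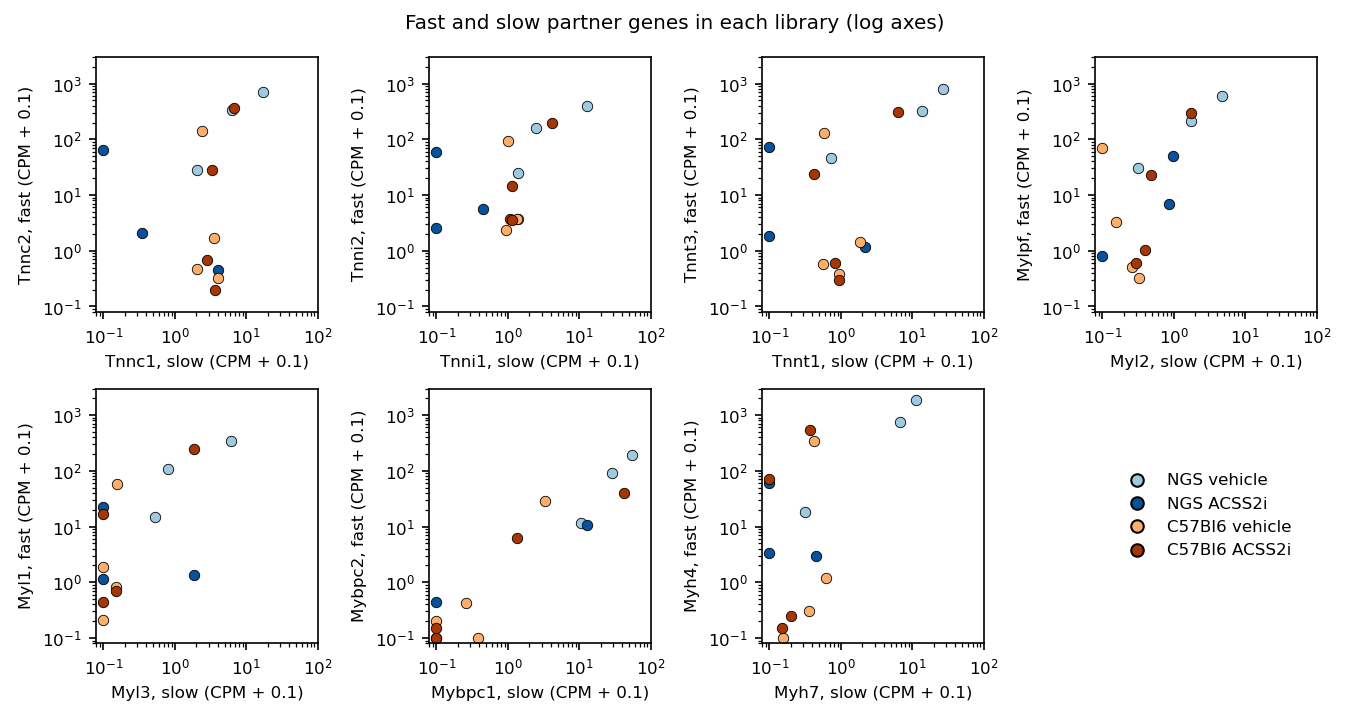
Level of the fast gene (vertical axis) against that of its slow partner (horizontal axis) for 7 pairs, as CPM + 0.1 on log axes, with a point for each library coloured by group. For Tnnc1 and Tnni1 the C57BI6 points form a narrow upright band, from 1.93 to 6.59 and from 0.85 to 4.05 CPM, while the points of Mybpc1 spread along both axes.

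Against this spread, treatment with ACSS2i changed none of the muscle genes in C57BI6 by the test. All comparisons were fitted by edgeR's quasi-likelihood test over 17294 genes, with p-values adjusted over all of them by Benjamini-Hochberg and a threshold of 0.05. Of the 36 genes 35 passed the filter on low counts and Myh7 did not. None of the 35 passed in C57BI6 (background 0.26% of all genes higher, 0.052% lower and 0.312% either way), 6 had an unadjusted p under 0.05 (17.1%, beside 7.96% of all genes), and the DESeq2 test and limma also called none. All 35 fold changes were positive, with a median of 1.70 on the log2 scale beside -0.01 over all genes, but this rested on a single library: without C57BI6 ACSS2i 3 the median was -1.24, and without C57BI6 vehicle 1 it was 5.91. Myh2 had the lowest adjusted p, at 6.33 ± 1.99 (SE) and adjusted p = 0.289 (n = 4 per group), and its only library above 0.5 CPM was C57BI6 ACSS2i 3. For Acta1 the log2 fold change was 2.46 ± 1.92, and it was -0.70 without C57BI6 ACSS2i 3. No gene had groups that did not overlap (background 7.05% higher and 1.89% lower).

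In the NGS strain 1 of the 35 genes passed, with a lower level in ACSS2i than in vehicle (background 1.38% of all genes lower, 1.32% higher and 2.69% either way). This was Tnni1, which fell by 5.70 ± 1.33 on the log2 scale (edgeR adjusted p = 0.0382, n = 3 per group). It rested on 6, 55 and 10 counts in vehicle and on 0, 1 and 0 counts in ACSS2i, a pooled ratio of 55.6 with a counting interval from 9.66 to 2230. All 3 ACSS2i libraries lay below all 3 vehicle libraries, which are not paired. Neither limma nor edgeR on the NGS libraries alone made the call, and it was lost in 7 of the 14 fits that left out 1 library: NGS vehicle 2 (log2 fold change -4.10, edgeR adjusted p = 0.101), NGS ACSS2i 2 or 3, C57BI6 vehicle 1 or 3, and C57BI6 ACSS2i 1 or 4 (adjusted p from 0.0506 to 0.0526 for these C57BI6 libraries, which enter only through the shared spread). All 35 fold changes were negative, with a median of -3.66 beside -0.01 over all genes, and 8 had an unadjusted p under 0.05 (22.9%, beside 22.1% of all genes). Among those that did not pass, Myh4 was at -5.34 ± 2.83 (adjusted p = 0.281), Acta1 at -3.26 ± 2.31 (adjusted p = 0.43), Tnnc1 at -2.83 ± 0.94 (adjusted p = 0.102) and Tnnt1 at -4.53 ± 1.501 (adjusted p = 0.103). The groups did not overlap for 7 genes, all lower in ACSS2i (background 8.56% lower, 10.2% higher): Actn2, Mb, Myh2, Mybpc2, Neb, Ryr1 and Tnni1. Without NGS ACSS2i 1 the median was -7.30. Myh7, not tested, had 77 counts in vehicle and 1 in ACSS2i, a ratio of 60.3 with a counting interval from 10.5 to 2410.

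The difference of the ACSS2i effect between the strains (C57BI6 minus NGS) passed for none of the 35 genes in edgeR (background 0.0173% higher, 0% lower), with 22 at an unadjusted p under 0.05 (62.9%, beside 13.8% of all genes). The DESeq2 test called 2 of them, among 283 genes in all, and limma none. Its median was 5.65 beside 0.02 over all genes, and 2.66 without C57BI6 ACSS2i 3. Mb was at 8.13 ± 2.21 (adjusted p = 0.205), Myh2 at 9.55 ± 2.86 (adjusted p = 0.219) and Tnni1 at 6.36 ± 1.52 (adjusted p = 0.19). The fold changes in the 2 strains come from separate libraries.

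Between the strains, 12 of the 35 genes were lower in C57BI6 than in NGS vehicle tumours and none was higher (background 14% lower, 18.8% higher and 32.8% either way). These were 5 of the 6 slow genes tested, 2 of the 14 fast genes and 5 of the 15 shared genes. The median log2 fold changes of the classes were close, at -3.925 for slow, -3.511 for fast and -4.045 for shared genes. All genes tested were negative in each class, so the split of calls does not show a larger change in slow genes. The 3 vehicle libraries of NGS included the pair highest in muscle RNA of the series, and strain and depth cannot be told apart. The slow genes were Tnni1 (-2.19 ± 0.71, adjusted p = 0.029), Tnnt1 (-3.80 ± 1.07, adjusted p = 0.0133), Myl2 (-4.05 ± 1.07, adjusted p = 0.00937), Myl3 (-5.89 ± 1.74, adjusted p = 0.0178) and Mybpc1 (-4.93 ± 1.73, adjusted p = 0.0404). Myl3 rested on 31 counts against 2, a ratio of 87.1 with a counting interval from 22.2 to 751. For Tnni1 the lowest NGS vehicle library, at 1.28 CPM, lay just above the highest of C57BI6 vehicle, at 1.27 CPM, and without NGS vehicle 2 its change was -0.60 (edgeR adjusted p = 0.574). Leaving out any 1 of the 4 C57BI6 vehicle libraries also ended its call (adjusted p from 0.0507 to 0.0658).

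The lower fast genes were the heavy chains Myh1 (-5.66 ± 1.49, adjusted p = 0.00925) and Myh2 (-6.91 ± 2.07, adjusted p = 0.0189), while Myh4, their neighbour on the chromosome, was at -3.23 ± 2.22 (adjusted p = 0.285). The shared genes were Mb (-5.91 ± 1.52, adjusted p = 0.00823), Actn2 (-6.04 ± 1.82, adjusted p = 0.0194), Des (-4.30 ± 1.30, adjusted p = 0.0199), Tcap (-4.71 ± 1.66, adjusted p = 0.0409) and Tpm2 (-1.45 ± 0.48, adjusted p = 0.0293). Eno3 was at -0.22 ± 0.32 (adjusted p = 0.639). The median was -3.83 beside 0.01 over all genes, and for 10 genes the groups did not overlap, all lower in C57BI6 (background 24.1% lower, 17.5% higher). The count of 12 moved with single libraries: it was 2 (Mb and Myh1) without NGS vehicle 2 and 31 without C57BI6 vehicle 1, and 5, 7 and 7 without C57BI6 vehicle 3, 2 and 4. Without C57BI6 vehicle 1 the median was -7.51.

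**Figure D5:**
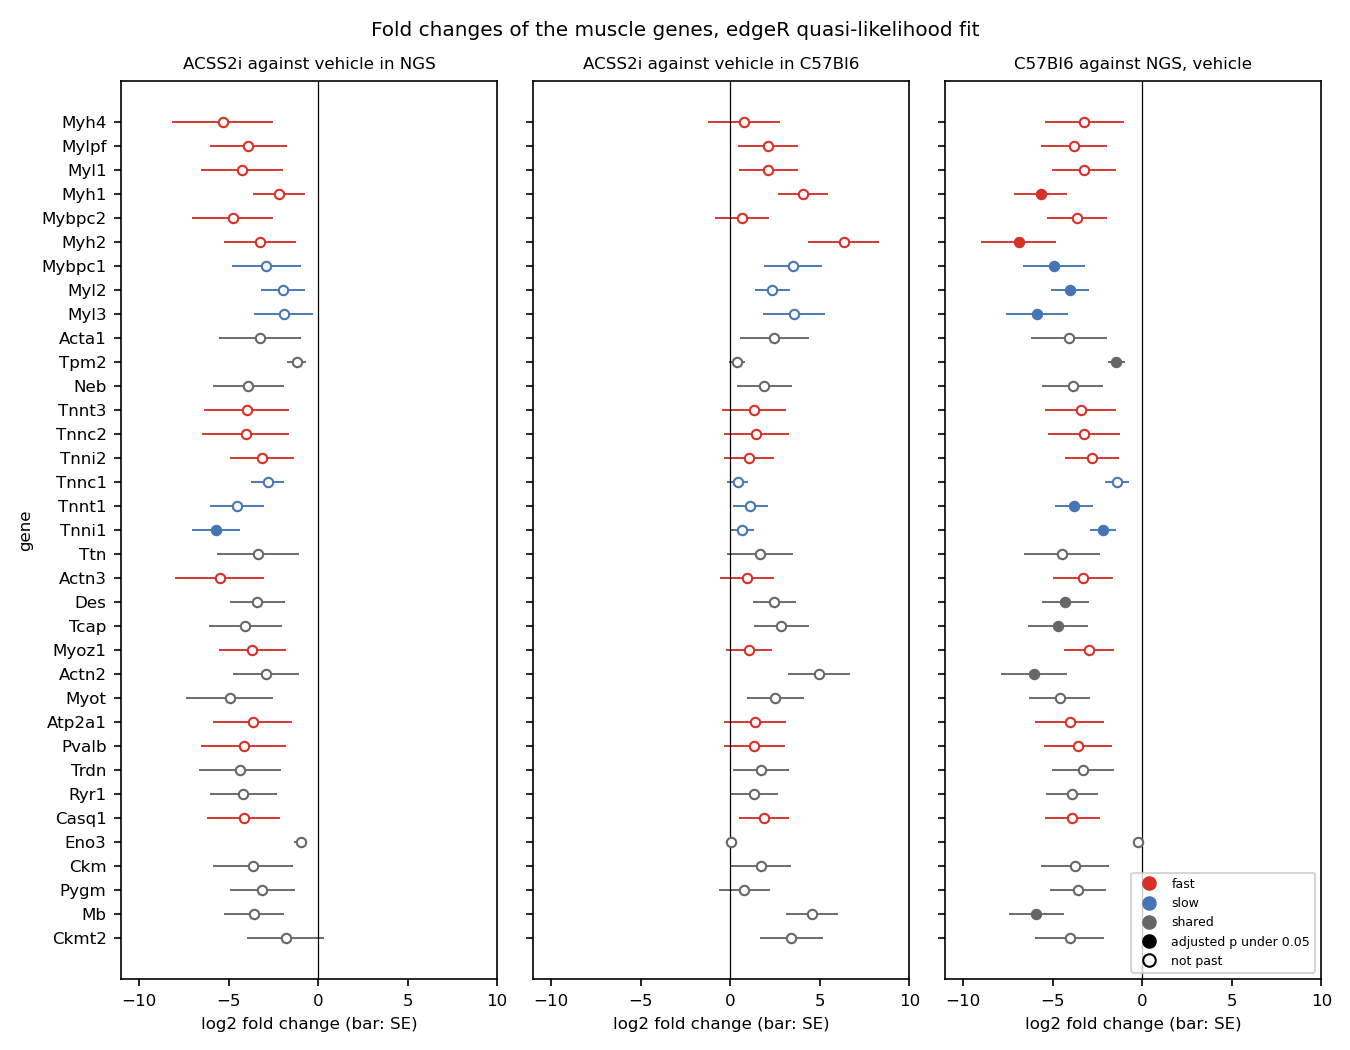
Log2 fold change with its SE for each of the 35 tested genes in 3 comparisons, coloured by fibre class, with filled points where the adjusted p was under 0.05. Points lie left of 0 in NGS with 1 filled (Tnni1), right of 0 in C57BI6 with none filled, and left of 0 between strains with 12 filled.

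With ACSS2i in both strains, 1 of the 35 genes was higher in C57BI6 than in NGS and none lower (background 23.1% higher, 17.2% lower and 40.3% either way). It was again Tnni1 (4.17 ± 1.39, adjusted p = 0.0268), with 135 counts against 1, a ratio of 18.0 with a counting interval from 3.18 to 718. The call was lost without C57BI6 ACSS2i 3, NGS ACSS2i 1 or NGS ACSS2i 3. The median of the 35 genes was 1.83 beside 0.06 over all genes, and became -1.09 without C57BI6 ACSS2i 3 and 5.57 without NGS ACSS2i 1. The groups did not overlap for Tnni1 and Eno3, both higher in C57BI6 (background 21.7% higher, 23.2% lower), and Eno3 was at 0.80 ± 0.34 (adjusted p = 0.0722). Neither strain comparison shares a library with the other, but each shares its groups with the treatment comparisons.

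Some genes outside the list followed the summed level closely. After the group means were removed, the log2 level of 10 genes went most closely with that of the summed muscle level over the 14 libraries: Myom2 (r = 0.991), Nrap (0.99), Cmya5 (0.987), Cox6a2 (0.985), Pgam2 (0.984), Hrc (0.982), Trim63 (0.981), Klhl31 (0.981), 3425401B19Rik (0.981) and Lmod3 (0.98). Myom2 codes for a myosin-binding protein of the M line, Cox6a2 for a muscle subunit of cytochrome oxidase, Pgam2 for the muscle phosphoglycerate mutase, and Trim63 for a ubiquitin ligase of muscle. Myom2 was at 4.68, 36.4 and 16.6 CPM in NGS vehicle, at 4.3, 0 and 0 in NGS ACSS2i, at 4.81, 0.212, 0.0521 and 0.0567 in C57BI6 vehicle, and at 1.69, 0.197, 22.4 and 0 in C57BI6 ACSS2i. Of the 36 genes themselves, 25 of the 35 tested had an r above 0.9 with the sum that contains them, beside 83 of all 17294 genes, and the lowest were Tnnc1 (0.187), Myl3 (0.448), Tnnt1 (0.453) and Tnni1 (0.546). These values describe libraries that differ in depth between the strains, and carry no test.

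A list of 60 other genes of skeletal muscle gave 58 that passed the filter. In neither treatment comparison did any of the 58 pass in edgeR, while the DESeq2 test called 7 lower and 1 higher in NGS. In C57BI6 53 of the fold changes were positive, but 11 of 57 without C57BI6 ACSS2i 3, and in NGS 57 were negative. Between the vehicle groups 18 were lower in C57BI6 and 1 was higher (31.0% and 1.72% of the 58, beside 14% and 18.8% of all genes). The lower genes numbered 4 without NGS vehicle 2, 6 to 7 without C57BI6 vehicle 2, 3 or 4, 11 without NGS vehicle 3, 44 without C57BI6 vehicle 1 and 32 without C57BI6 ACSS2i 3. The lower genes ran from Sln, a regulator of the calcium pump, at -7.24 ± 2.01 (adjusted p = 0.0125) to Tpm1, a tropomyosin that many cells make, at -0.86 ± 0.23 (adjusted p = 0.011). They included Cox8b (-5.09 ± 1.39, adjusted p = 0.0116), Myoz2 (-5.71 ± 1.91, adjusted p = 0.0357) and Fbxo32 (-0.96 ± 0.18, adjusted p = 0.00108), and further Cacna1s, Cacng1, Chrna1, Cox6a2, Hspb7, Jsrp1, Klhl40, Mypn, Myh13, Pdlim3, Smtnl1, Srl and Txlnb. The gene that was higher was Phkg1, the catalytic subunit of muscle phosphorylase kinase, at 3.80 ± 0.30 (adjusted p = 1.511e-07). It was at 3.15 to 13.1 CPM in all 6 NGS libraries and at 85.4 to 109.3 CPM in all 8 C57BI6 libraries, high and low muscle libraries alike. With ACSS2i in both strains Phkg1 was again higher in C57BI6 (4.68 ± 0.33, adjusted p = 5.19e-08), as was Cacnb1, a subunit of the calcium channel (1.54 ± 0.35, adjusted p = 0.00301). Of the 5 genes of this list with the highest mean level, Phkg1 and Tpm1 among them, Tpm1 ran from 557 to 1932 CPM, Tpm3 from 752.5 to 1005 CPM, Atp2a2 (the pump of slow fibres and many other cells) from 109 to 173 CPM and Hspb6 from 25.0 to 118 CPM, with C57BI6 ACSS2i 3 the highest in Hspb6.

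Markers of other tissues were counted beside these results, and their part in them was not tested. Of 14 genes of muscle stem cells and myoblasts 7 passed the filter: Myog, which switches on muscle differentiation, was at 2.13, 3.0 and 1.9 CPM in NGS vehicle, at 0 in all 3 NGS ACSS2i libraries, at 0.435 CPM or less in 7 C57BI6 libraries, and at 4.92 CPM in C57BI6 ACSS2i 3. The sum of this list ran from 16.9 to 38.8 CPM, and between the vehicle groups 4 of the 7 genes were lower and 2 higher in C57BI6. Of 12 heart genes, the defining Myh6, Nppa and Tnni3 lay at or below 1.43 CPM in every library. Actc1, the cardiac actin, which developing skeletal muscle also makes, was at 9.4 CPM in C57BI6 ACSS2i 3 and at most 0.922 CPM elsewhere, Tnnt2 ran from 3.91 to 31.3 CPM and Myl4 from 0 to 5.62 CPM. The heart sum ran from 12.8 to 31.3 CPM in NGS and from 6.4 to 25.9 CPM in C57BI6. The 10 smooth muscle genes summed to 359.5 to 664 CPM in NGS and to 143 to 209.7 CPM in C57BI6, with 5 lower in C57BI6 vehicle. The 16 adipocyte genes summed to 361 to 2331 CPM in NGS and to 63.6 to 615 CPM in C57BI6, with 7 lower in C57BI6 vehicle. Of the 20 skin genes 19 passed the filter and 16 were lower in C57BI6 vehicle, the sum being 69.9 to 1995 CPM in NGS vehicle and 20.4 to 23.6 CPM in C57BI6 vehicle. Krt5, the basal keratin, was at 177 CPM in NGS vehicle 1 and at 0.59 CPM or less in all C57BI6 libraries. Not every gene of the list was that low there: in C57BI6 libraries Krt10 ran from 4.23 to 6.83 CPM and Sbsn from 5.8 to 10.7 CPM. The 10 genes of nerve and Schwann cells summed to 112 to 217.5 CPM in all libraries, with 4 lower and 1 higher in C57BI6 vehicle. Over all genes 14% were lower and 18.8% higher in C57BI6 vehicle. Of the genes tested, 57.1% of the myoblast list, 50.0% of smooth muscle, 43.8% of adipocyte, 84.2% of skin and 44.4% of nerve were lower. The shares that were higher were 28.6% of the myoblast list and 11.1% of nerve. None of these lists had a gene past the test in a treatment comparison.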

How the data were processed

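RNA of mouse tumour tissue was measured in 14 libraries by 3′ sequencing (QuantSeq, per the labels' protocols). The authors deposited unnormalized integer counts per gene, with genome build mm10, RSEM 1.2.3 and DESeq2 named in the submitters' processing notes with no role stated; the aligner, annotation and filters are not given in the sources used here, and RSEM estimates may have been rounded. Symbols came from GENCODE M21, which named 51596 of 51789 genes. Promoter windows came from RefSeq (GRCm38.p6).

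Library totals ran from 2846161 to 20344809 counts. Levels are CPM of library totals. Intervals are exact (Clopper-Pearson, for shares and for sums) at 95%. Like the limit of 3 counts for a count of 0, they cover counting error only, since no molecular identifiers are described. Labels do not say whether replicates are separate animals, so p-values measure the spread between these libraries, which may be technical. Genes passing filterByExpr were scaled by TMM and tested with edgeR 4.0.16 (R 4.3.3) in 1 model of 4 group means, two-sided, Benjamini-Hochberg over all genes tested. Alternatives used DESeq2 1.42.0, limma 3.58.1 (voom with sample weights), other scalings and filters, a replicate block, single strains and leaving out each library. The fit was tested on simulated data.

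The members and lists were chosen with earlier results of these data known. Values in every library are given for the gene with the highest mean CPM in each role and fibre class, both genes of 7 fast and slow partner pairs and every listed gene past a test. Of the other muscle genes, those past a test and the 5 with the highest mean are named, and so are the 10 genes most like the summed level by Pearson r of log2(CPM + 0.5) within groups. Alternatives for the other muscle genes, and fold ranges without Des, Tpm2 and Eno3, were added after seeing the data. Values quoted for other genes were chosen after they were seen. No score over the members was tested.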

Additional observations from a re-analysis of the deposited data

Results flagged for a closer look

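Within the C57BI6 groups of 4 libraries, 76 values were checked for a single library whose gap to its nearest neighbour filled most of the group's range (Dixon's test at 95%). Of these, 48 stood apart: 29 in C57BI6 ACSS2i 3, 18 in C57BI6 vehicle 1 and 1 in C57BI6 vehicle 2. The check used CPM and not logs, and on that scale the highest library fills most of a wide range. Myh4 was flagged in C57BI6 ACSS2i 3 although another library of its group was at 69.75 CPM. The count of flags therefore cannot be set against a rate by chance. The values are not independent, since the genes move together.

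C57BI6 vehicle 1 stood above the other 3 vehicle libraries in the summed muscle level (2046 CPM against 157 to 231), the fast sum (1018 against 5.44 to 18.4) and the shared sum (1021 against 145 to 205.5). Single genes were Ttn (359 CPM), Acta1 (173.1), Myh4 (346.7), Atp2a1 (61.65), Mybpc1 (3.262), Tnnc2 (138.4), Tnni2 (91.54), Tnnt3 (130.7), Mylpf (70.26), Myl1 (57.91), Mybpc2 (28.34), Des (10.85) and Tcap (7.913). It was also above in the sum of muscle stem cell and myoblast genes (35.29 CPM against 27.3 to 28.7) and below in that of skin genes (20.37 against 23.1 to 23.6). Most of the 35.29 CPM came from Pax3 (28.34) and Megf10 (4.652). Pax7, Myod1 and Myog were at 0.107, 0.0535 and 0.107 CPM in that library.

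C57BI6 ACSS2i 3 stood above the other 3 ACSS2i libraries in the summed muscle level (5929 CPM against 169.6 to 664), the fast sum (2582 against 7.13 to 223), the slow sum (62.86 against 4.93 to 6.2), the shared sum (3284 against 156 to 435), the sum of the other muscle genes (3082 against 1818 to 2010) and that of the developmental myosins (21.33 against 0.0493 to 0.393). Fast genes were Myh4 (534.9 CPM), Myh1 (167.4), Myh2 (74.53), Atp2a1 (148.7), Tnnc2 (365.9), Tnni2 (192.6), Tnnt3 (312.8), Mylpf (297.9), Myl1 (250.8) and Mybpc2 (40.5). Slow genes were Mybpc1 (42.45 CPM), Tnni1 (4.05), Tnnt1 (6.157), Myl2 (1.62) and Myl3 (1.728). Shared genes were Ttn (1095 CPM), Acta1 (910.2), Eno3 (141.2), Actn2 (14.64), Des (68.32), Mb (28.3), Tcap (57.68) and Tpm2 (285.2).

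C57BI6 vehicle 2 stood above its group in the sum of the developmental myosins (2.543 CPM against 0.113 to 0.417).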

How the results depend on the processing

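No listed gene passed for ACSS2i in C57BI6 under any alternative run. For ACSS2i in NGS the 1 call became 3 with the DESeq2 test, 0 with limma voom, 2 with no filter on low counts and 0 with only the NGS libraries, and ranged from 0 to 3 with 1 library left out. The difference of effects gave 2 with the DESeq2 test in place of 0. Between the ACSS2i groups the 1 call became 2 with the DESeq2 test, 0 with limma voom and 2 with no filter, and ranged from 0 to 2 (without C57BI6 ACSS2i 3, 2 other genes were lower and Tnni1 no longer passed). Between the vehicle groups the 12 calls became 22 with limma voom and ranged from 2 to 31. The fast share of NGS vehicle was 98.7% without Mybpc1 in place of 96.9%. The change of Acta1 reversed without C57BI6 ACSS2i 3: with 1 library left out it ranged from -0.699 to 7.08 for ACSS2i in C57BI6 and from -1.53 to 6.48 between the ACSS2i groups. Over all genes, calls for ACSS2i were 54 in C57BI6 (DESeq2 test 339, limma 429, no filter 112, C57BI6 libraries only 266, block 9), 466 in NGS (DESeq2 test 1574, limma 27, NGS libraries only 9, block 254) and 3 for the difference (DESeq2 test 283, limma 0, no filter 7). Causes were not tested beyond fewer libraries entering those fits.

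Replicate numbers did not pair the libraries: deviations from group means of equal numbers correlated at 0.0946, -0.0022 and 0.0431 in NGS and at -0.0109, -0.101, -0.137 and 0.155 in C57BI6. With the replicate block 0, 1 and 0 listed genes passed for ACSS2i in C57BI6, in NGS and for their difference, and no block could be fitted between strains. DESeq2 size factors and library totals without muscle genes gave the same counts of calls. NGS libraries, at 2846161 to 4701101 counts, allow up to 1.05 CPM for a count of 0, which limits what can be said of slow genes such as Tnni1 there.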
